A study of Mus musculus with 4 samples.

Results

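The genes described here are 10 imprinted genes, chosen by name: H19, Igf2, Igf2r, Meg3, Dlk1, Cdkn1c, Kcnq1ot1, Peg3, Mest and Grb10. All 10 were found among the 55573 mouse gene identifiers of the count table. The study captured RNA together with the transcription factor Runx1 by RNA immunoprecipitation followed by sequencing (RIP-seq). The cells were sorted as Cd31+, a surface marker of endothelial and early blood cells, from the caudal part of WT C57BL/6 embryos at E10.0, embryonic day 10. For 2 libraries the antibody bound Runx1, and for the other 2 it was IgG, which has no specific target. All 4 libraries shared the same genotype, stage and tissue, so that the antibody was the only labelled difference. No library of the RNA before precipitation was used here, and a value below is therefore a level in precipitated RNA, not in the cells. The labels did not say whether replicates came from separate pools of embryos, so the p-values rest on a spread that may be technical.

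An imprinted gene is transcribed mainly from the chromosome inherited from one parent, under the control of DNA methylation laid down in egg or sperm. The genes lie in clusters that often pair a long non-coding RNA with coding genes expressed from the opposite parental copy: maternal H19 with paternal Igf2, maternal Meg3 with paternal Dlk1, and paternal Kcnq1ot1, which silences the paternal copy of the maternally expressed Cdkn1c in cis. Many of the encoded proteins act on embryonic growth, Igf2 as a growth factor, Igf2r as the receptor that clears it, and Cdkn1c as an inhibitor of the cell cycle. By textbook knowledge H19, Meg3, Igf2r, Cdkn1c and Grb10 are expressed from the maternal copy in most embryonic tissues, and Igf2, Dlk1, Kcnq1ot1, Peg3 and Mest from the paternal copy. The counts do not separate the parental copies.

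Depth was 1675488 and 1887301 counts in genes for Runx1 and 3843318 and 2482045 for IgG, and 16929 to 18401 genes had at least 1 count. The spike-in RNA, added from outside the cells, contributed only 434 to 713 counts per library. All 10 endothelial markers on the list reached testable counts, with a summed level of 1540 and 1859 CPM (counts scaled to 1000000 gene counts per library) with Runx1 and 1795 and 1852 CPM with IgG. Of other cell types, the 9 mesenchymal markers summed to 1222 to 1485 CPM, the 8 erythroid markers to 450.4 to 853.5 CPM, the 8 neural markers to 407.7 to 660.7 CPM and the 9 endoderm markers to 110 to 121 CPM, with the liver and yolk sac genes Alb and Ttr at 0 in every library. In such a mixture, fewer cells of a type and less RNA per cell cannot be told apart.

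Both H19 and Meg3 contain a microRNA gene within an exon of some isoforms, and these sequences are shown because the counting of the host gene meets a second annotated gene there. The Mir675 hairpin lies at chr7:142577064-142577147 on the minus strand (mm10), inside an exon of 3 of the 7 annotated H19 isoforms, and starts at base 997 of the isoform H19-202. The sequences, from RefSeq on GRCm38.p6, are given 5′ to 3′. Capitals mark the mature arms in the hairpin, and the seed, bases 2 to 8, in the mature microRNAs.
Mir675 hairpin: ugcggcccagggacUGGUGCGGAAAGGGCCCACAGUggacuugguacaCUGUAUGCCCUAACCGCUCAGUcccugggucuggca
miR-675-5p: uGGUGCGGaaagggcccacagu
miR-675-3p: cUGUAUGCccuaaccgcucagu
miR-770-5p (Meg3): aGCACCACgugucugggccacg
miR-770-3p (Meg3): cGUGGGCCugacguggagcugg
These mature microRNAs have different seeds. Mir675 and Mir770, and Mir335 and Mir483 in introns of Mest and Igf2, were listed at 0 counts in all 4 libraries. Mir675 and Mir770 have 0 bases outside the exons of H19 and Meg3, so that for them a count of 0 sets no limit. The Mir675 hairpin covers 84 of the 2460 exonic bases of H19, 3.41%, so that it bears on little of the H19 count.

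With the Runx1 antibody, H19 was higher than with IgG, 2.35-fold relative to the typical gene, and was the single member past the threshold. Igf2, its neighbour, had 6 and 6 counts with Runx1 and 1 and 0 with IgG. Of its exonic bases 62.8% are shared with another annotated gene, so these counts are not read as its level. The nuclear RNA Kcnq1ot1 was level between the antibodies, and Peg3, Igf2r, Grb10 and Meg3 lay somewhat lower with Runx1 without passing. In edgeR's quasi-likelihood test over 12401 genes, at an adjusted p of 0.05, 1 of the 9 members tested was called higher and 0 lower, against 0.306% of all genes called higher, 0.339% called lower and 0.645% either way. At an unadjusted p under 0.05 in edgeR, 2 members were higher (6.88% of all genes) and 3 lower (7.35%). In CPM, the 2 Runx1 libraries both exceeded the 2 IgG libraries for 3 members (24.1% of all genes) and both lay below them for 4 (21.3%), so a lack of overlap between 2 and 2 libraries was common across the whole table. DESeq2 called 2 members higher and 2 lower (1.98% and 2.77% of all genes), as did limma-voom (0.823% and 0.968%), H19 and Mest on one side and Grb10 and Peg3 on the other.

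**Figure D1:**
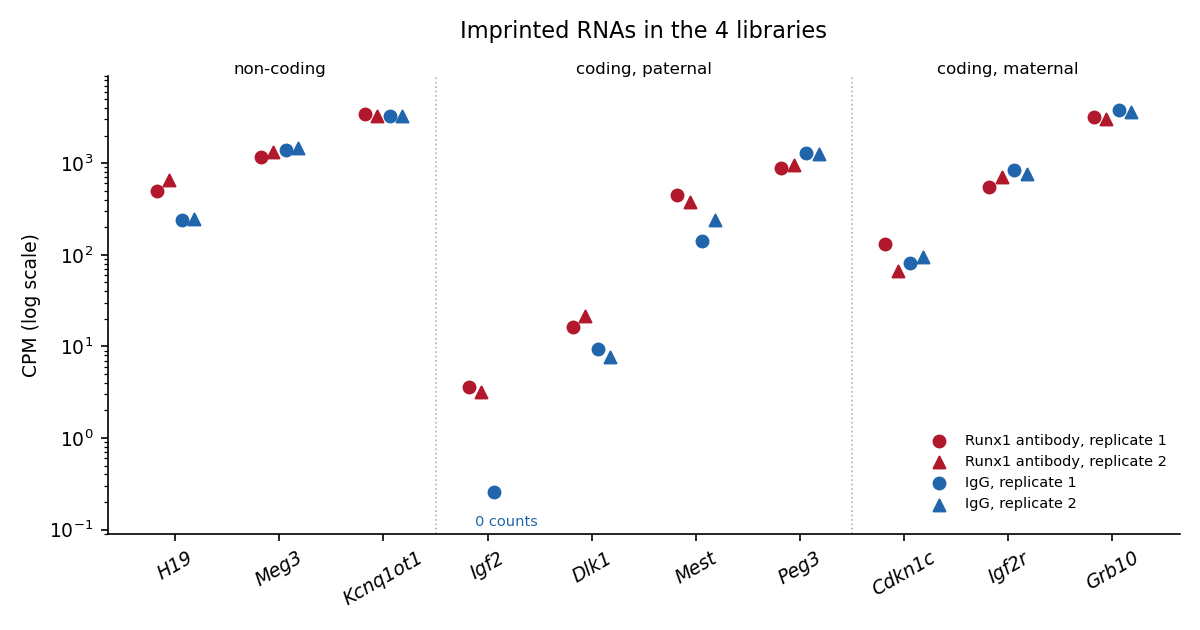
Level of each of the 10 imprinted genes in CPM, on a log axis, 1 point per library, for the Runx1 antibody and IgG. The H19 points for Runx1 lie at 501.9 and 654.4 CPM, above both IgG points near 242 CPM, while the Kcnq1ot1 points all lie between 3272 and 3408 CPM.

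All of these fold changes are relative to the typical gene of each library. Scaled to the spike-in counts instead, the median over all genes moved from 0.027 to -1.25 on the log2 scale, and all 9 members were then below 0, H19 at -0.054. H19, Mest and Dlk1 lay nearest to 0 on that scale and Peg3, at -1.79, farthest from it. Under that scaling 5 members were called lower, beside 31.6% of all genes.

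H19 is a long non-coding RNA on chr7:142575529-142578143 (minus strand, mm10), strongly expressed in embryonic mesoderm and endoderm and best known for sharing enhancers with Igf2. It had 841 and 1235 counts with Runx1 and 926 and 603 with IgG, or 501.9 and 654.4 CPM against 240.9 and 242.9 CPM. Both Runx1 libraries were thus well above both IgG libraries, and the IgG libraries were almost level with each other. The mean was 578 ± 108 CPM with Runx1 and 242 ± 1.42 CPM with IgG (SD, n = 2 each), a log2 fold change of 1.23 ± 0.19 (SE) with an adjusted p of 0.0353 in edgeR. Among the fold changes of all 12401 genes, sorted from the highest, that of H19 had rank 1192. Per kilobase of its longest transcript H19 stood at 253 CPM with Runx1 and 106 CPM with IgG, the second highest of the 10 genes in the Runx1 libraries.

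The H19 call did not hold in 3 of 13 other settings. It was 0.84 ± 0.17 with an adjusted p of 0.0848 in edgeR once the fit was corrected for length and GC of the transcripts, and -0.054 with an adjusted p of 0.907 under spike-in scaling. With the replicate number as a block the value was 1.22 and the adjusted p 0.111 in edgeR, in a fit that called 2 of 12401 genes. With 1 library left out, the log2 fold change was 1.00 to 1.38. In such fits the lone library is assumed to vary like the other group, and more of all genes were called, so their p-values are no check of stability. Markers of red blood cells lay on the same side. All 6 erythroid markers tested had fold changes above 0 (51.5% of all genes did). In edgeR 0 of them were called (0.645% of all genes either way). DESeq2 called 2 higher, Hba-x and Hbb-y (1.98% of all genes). Their median log2 value over all 6 was 0.85, or 0.45 once corrected for length and GC content. The list of 8 summed to 853.5 and 851.5 CPM with Runx1 and 482.9 and 450.4 CPM with IgG. The 9 mesenchymal markers, from another cell type known to express H19, had a median of 0.57, or 0.56 once corrected. Of these 9, 7 were above 0, and the list summed to 1404 and 1485 CPM against 1320.5 and 1222 CPM. Of the 8 neural markers 7 were tested, with 5 above 0 and a median of 0.48, or 0.35 once corrected. That list summed to 660.7 and 530.4 CPM against 448.6 and 407.7 CPM. The 10 endothelial markers had a median of 0.09, or 0.0031 once corrected, with 6 above 0. Of the 9 endoderm markers 3 were tested, with 2 above 0 and a median of 0.24, or -0.26 once corrected. The part of these cell types in the H19 difference was not tested.

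The 5 genes of at least 100 mean CPM whose log2 levels over the 4 libraries ran closest to those of H19, each taken relative to its own mean, were Ftl1 (distance 0.13), Tubb5 (0.13), Clta (0.18), Actb (0.19) and Rps3 (0.21). They encode a ferritin chain, a tubulin, a clathrin chain, an actin and a ribosomal protein, and all 5 are coding genes. Their own log2 fold changes ran from 1.12 for Rps3 and Ftl1 to 1.25 for Actb. These distances rest on 4 libraries and describe shape only.

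Igf2, the paternally expressed growth factor gene next to H19, lies at chr7:142650766-142666816 on the minus strand. It had 6 and 6 counts with Runx1 and 1 and 0 with IgG, or 3.58, 3.18, 0.26 and 0 CPM, below the filter, and was not tested. The Runx1 libraries were the higher ones, yet 3 counts alone amount to 1.79 and 1.59 CPM in them and to 0.781 and 1.21 CPM in the IgG libraries. The pooled counts, 12 of 3562789 and 1 of 6325363, give a ratio of 21.3 with an exact 95% interval of 3.15 to 910.7, which covers counting error only. Per kilobase Igf2 stood at 0.72 CPM with Runx1, the lowest of the 10 genes.

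The exons of Igf2 are largely shared with another annotated gene, which makes its count uncertain. Of its 5723 exonic bases, 3596 (62.8%) are also exons of Gm49394, a coding gene annotated on the same strand at chr7:142650769-142669942, and 98 more lie under exons of Igf2os on the other strand. Gm49394 itself had 0 counts in every library and has 0 exonic bases that no other gene covers. Only 2029 bases belong to Igf2 alone. As the exon map shows, nearly all of them lie upstream of its last exon, the largest block (1126 bases) at 7.33 to 8.45 kb from the Igf2 start. Across the table, coding genes with 90% or more of their exons under another gene of the same strand had no count in any library in 94.0% of 217 cases, and those with 50 to under 90% in 53.9% of 206 cases. Of the 15358 coding genes with no exon overlap, 35.1% had no count. Testable counts were reached by 0.922%, 13.1% and 44.4% of these groups. Whether reads over the shared exons were set aside in the counting was not tested, and the Igf2 counts are not read as its level. Igf2os, the opposite-strand transcript, had 5, 1, 6 and 4 counts.

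**Figure D2:**
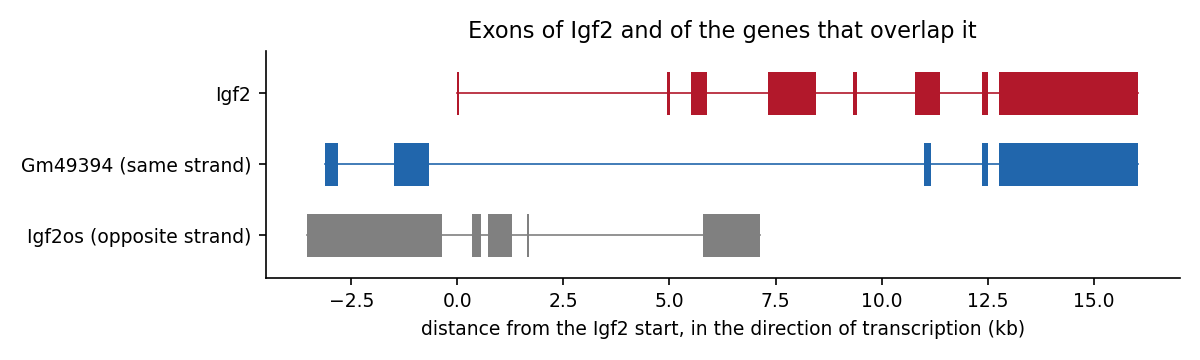
Exons of Igf2, Gm49394 and Igf2os (GENCODE M21, mm10) by distance in kb from the Igf2 start, with the direction of transcription to the right. The last exon of Igf2, 3287 bases, lies almost whole under a Gm49394 exon of 3284 bases.

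Among the other members such overlap was small on the same strand, at most 3.41% of exonic bases (H19) apart from Igf2. On the opposite strand, 912 bases of Mest (23.1%) lie under Copg2 and 625 bases of Cdkn1c (30.7%) under Gm44732. The strand setting of the counting is not given in the sources used here, so reads of such pairs cannot be told apart with certainty. Copg2 had 57, 31, 85 and 46 counts, far fewer than Mest, and Gm44732 had 0 in every library.

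In the Kcnq1 domain, also on chromosome 7, Kcnq1ot1 was the most abundant non-coding member by total counts, though not per kilobase. This unspliced RNA of 93.1 kb (chr7:143203458-143296549, minus strand) runs antisense to Kcnq1 from within it and coats the silenced paternal domain. It had 3408 and 3280.4 CPM with Runx1 and 3272 and 3281 CPM with IgG. One Runx1 library was the highest and the other lay between the IgG libraries, so the groups overlapped. The log2 fold change was 0.0007 ± 0.07 (SE), with an adjusted p of 0.999 in edgeR. Per kilobase it stood at 35.9 CPM with Runx1 and 35.2 CPM with IgG. After correction for length and GC content it came to 0.48 ± 0.16, with an adjusted p of 0.300 in edgeR. Cdkn1c, the maternally expressed cell cycle inhibitor it silences on the paternal copy, lies at chr7:143458339-143461050. It had 129.5 and 67.3 CPM with Runx1 and 81.2 and 95.1 CPM with IgG. The Runx1 libraries lay on either side of the IgG libraries. Its log2 fold change of 0.13 ± 0.38 had an adjusted p of 0.930 in edgeR, and the value was -0.44 when the first Runx1 library was left out.

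In the cluster on chromosome 12, Meg3, a maternally expressed non-coding RNA kept largely in the nucleus (chr12:109541001-109571726, plus strand), had 1163 and 1332 CPM with Runx1 and 1392 and 1481 CPM with IgG. Both Runx1 libraries lay below both IgG libraries, and the higher Runx1 library came close to the lower IgG library. The log2 fold change was -0.23 ± 0.12, with an adjusted p of 0.415 in edgeR, and it turned to 0.15 after the correction for length and GC content. Dlk1, a membrane ligand related to the Notch ligands and the paternally expressed partner (chr12:109452823-109463336), was scarce, with 27, 40, 36 and 19 counts. In CPM the Runx1 libraries had 16.1 and 21.2 and the IgG libraries 9.37 and 7.65, so that the groups did not overlap. The log2 fold change of 1.1 ± 0.73 had an adjusted p of 0.567 in edgeR, the widest error of the members. Downstream of Meg3 on the same strand, the non-coding RNA Rian had 987.8 and 864.2 CPM with Runx1 and 972.3 and 1103 CPM with IgG, and Mirg had 22.1, 2.65, 8.85 and 4.43 CPM.

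Mest encodes an enzyme of the hydrolase fold expressed widely in embryonic mesoderm (chr6:30723547-30748465, plus strand). It had 448.2 and 375.7 CPM with Runx1 and 141.8 and 238.1 CPM with IgG. Both Runx1 libraries were above both IgG libraries, and the IgG libraries differed much from each other. The log2 fold change was 1.09 ± 0.26, or 2.13-fold, with an adjusted p of 0.113 in edgeR, so that it did not pass. The adjusted p was 0.0018 in DESeq2 and 0.0269 in limma-voom, which called 1.98% and 0.823% of all genes higher. In edgeR it was 0.196 after the length and GC correction and 0.784 under spike-in scaling. With the first IgG library left out, the log2 fold change was 0.75, from a fit with 1 IgG library.

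Peg3, which encodes a large zinc finger protein (chr7:6703892-6730431), had 886.3 and 946.9 CPM with Runx1 and 1305 and 1243 CPM with IgG. The Runx1 libraries were both lower, and each group was tight. Its log2 fold change was -0.50 ± 0.11, with an adjusted p of 0.0985 in edgeR. The adjusted p was 0.0018 in DESeq2 and 0.0231 in limma-voom, which called 2.77% and 0.968% of all genes lower. After the length and GC correction the value was -0.12, with an adjusted p of 0.793 in edgeR. Grb10, an adaptor that dampens insulin and IGF signalling (chr11:11930508-12038683), was the most abundant member per kilobase, at 611 CPM with Runx1 and 739 CPM with IgG. Its libraries had 3163 and 3026 CPM with Runx1 and 3826 and 3656 CPM with IgG, without overlap. The log2 fold change was -0.30 ± 0.07, with an adjusted p of 0.124 in edgeR, 0.012 in DESeq2 and 0.00562 in limma-voom. After the length and GC correction it was -0.16, with an adjusted p of 0.498 in edgeR. Igf2r, the receptor that takes Igf2 to the lysosome (chr17:12682406-12769664), had 545.5 and 713.2 CPM with Runx1 and 848.5 and 758.2 CPM with IgG, again without overlap. Its log2 fold change of -0.38 ± 0.16 had an adjusted p of 0.343 in edgeR. The value was -0.13 after the correction and -0.61 when the second Runx1 library was left out, a fit with 1 Runx1 library.

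**Figure D3:**
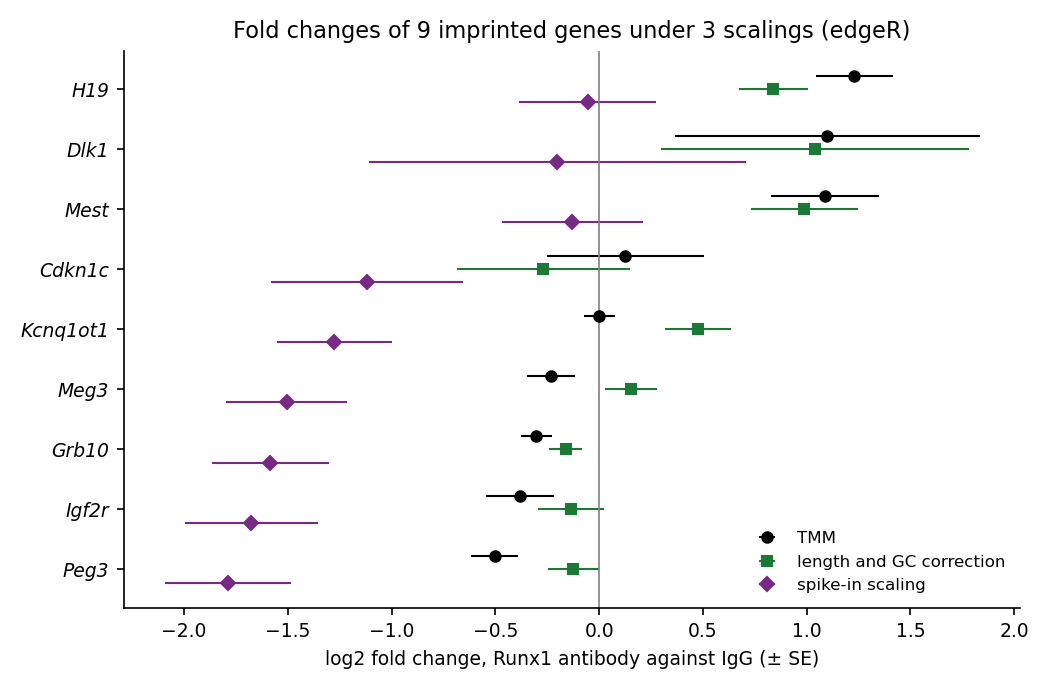
Log2 fold change, Runx1 over IgG, of the 9 members tested, with bars of 1 SE, scaled with TMM, after length and GC correction, and scaled to the spike-in counts. H19 lies at 1.23 with TMM, 0.84 after the correction and -0.054 with the spike-in scaling, and Peg3 is the lowest with TMM, at -0.50.

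Ordered by CPM per kilobase of longest transcript in the IgG libraries, the members ran from Grb10 (739) through Peg3 (147), H19 (106), Meg3 (98.7), Igf2r (90.4), Mest (71.3), Cdkn1c (46.4), Kcnq1ot1 (35.2) and Dlk1 (1.83) to Igf2 (0.03). H19 and Meg3 stood close together in that order, with 105.4 and 106.3 CPM per kb for H19 and 95.7 and 101.8 for Meg3. The higher Igf2r library, at 95.5 CPM per kb, nearly met the lower Meg3 library, so these neighbours did not differ much beyond their spread. In the Runx1 libraries H19 (253) moved above Peg3 (105), and Mest (155) moved above Peg3, Meg3 (85.7) and Igf2r (70.8).

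A ratio of 2 genes within 1 library does not depend on how libraries are scaled, but it does depend on a correction for length and GC content, which brought H19 (0.84), Kcnq1ot1 (0.48) and Meg3 (0.15) closer together on the log2 scale. Such ratios were chosen after the values had been seen and are given as a description, with the exact two-sided permutation test, whose smallest p for 2 against 2 libraries is 0.333 over 6 arrangements. For every 100 Meg3 counts, H19 had 43.2 and 49.1 with Runx1 and 17.3 and 16.4 with IgG, a ratio 2.73 times as high with Runx1 (exact permutation p = 0.333). Both Runx1 libraries stood far above both IgG libraries. For every 100 Kcnq1ot1 counts, H19 had 14.7 and 19.9 with Runx1 and 7.36 and 7.40 with IgG, 2.32 times as high (exact permutation p = 0.333). Against Igf2r the ratio was 3.05 times as high and against Grb10 2.86 times, each with the same p in the exact permutation test. H19 and Mest kept no common order, with 112 and 174.2 H19 counts per 100 Mest counts with Runx1 and 169.9 and 102 with IgG (exact permutation p = 0.667). Mest against Peg3 gave 0.51 and 0.40 with Runx1 and 0.11 and 0.19 with IgG, 3.11 times as high (exact permutation p = 0.333).

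Of the ratios of neighbouring genes within a cluster, those chosen here overlapped between the antibodies. Not every such pair did, since Dlk1 was higher and Meg3 lower with Runx1, each without overlap. Meg3 against Rian was 0.97 times as high with Runx1 (exact permutation p = 1.000). Igf2r against Airn, the antisense non-coding RNA that silences it, was 0.92 times as high (exact permutation p = 1.000), and Peg3 against Usp29, its neighbour, 1.17 times (exact permutation p = 0.667). Of genes on different chromosomes, Meg3 against Kcnq1ot1 was 0.85 times as high, from 0.34 and 0.41 with Runx1 and 0.43 and 0.45 with IgG, without overlap (exact permutation p = 0.333).

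**Figure D4:**
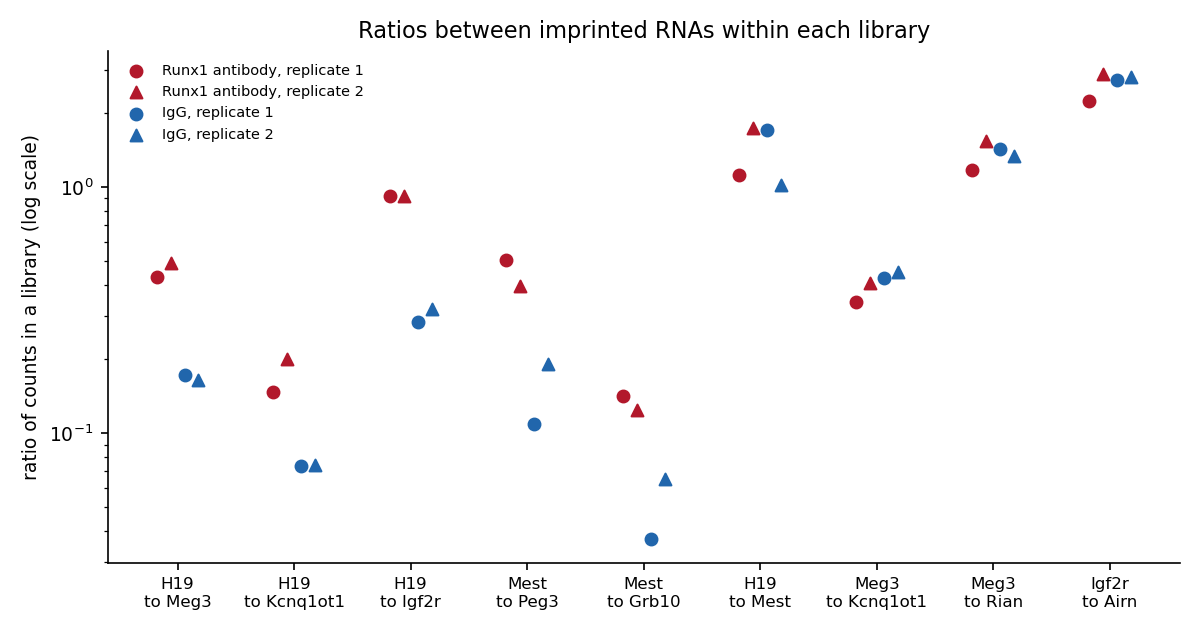
Ratios of the counts of 2 imprinted genes within each library, on a log axis, 1 point per library. H19 to Meg3 lies at 0.43 and 0.49 with Runx1 and 0.17 and 0.16 with IgG, while H19 to Mest overlaps between the antibodies.

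The non-coding members did not share a direction with TMM scaling, while all 3 were below 0 with spike-in scaling and all 3 above 0 after the length and GC correction. H19 was above 0, Kcnq1ot1 at 0.0007 and Meg3 at -0.23 on the log2 scale, with a median of 0.0007, beside a median of -0.088 over the 6 coding members tested and 0.027 over all genes. After the correction the medians were 0.48 for the non-coding and -0.13 for the coding members, beside 0.050 over all genes. Of the coding genes within 150 kb of H19, Meg3 or Kcnq1ot1, 6 were tested, among them Dlk1, which is also counted with the coding members. In this set 0 were called, 4 were above 0 (51.5% of all genes) and the median was 1.01, with values from -0.46 to 1.32. In edgeR 1 of these 6, Cd81, a tetraspanin gene, had an unadjusted p under 0.05, beside 14.2% of all genes. Next to H19, Mrpl23, a mitochondrial ribosomal protein gene, had 7, 26, 19 and 5 counts and a log2 fold change of 1.32 ± 1.16. Lsp1, a leukocyte actin-binding protein gene, had 54, 70, 220 and 89 counts and a value of -0.46 ± 0.48. The insulin gene Ins2 was at 0 in every library, and of the 8 coding neighbours of H19 only these 2 could be tested.

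Near Kcnq1ot1, Cd81 had 155, 91, 77 and 93 counts, with a log2 fold change of 1.26 ± 0.52 and an adjusted p of 0.320 in edgeR. Tssc4 had 60, 171, 127 and 80 counts and a value of 0.93 ± 0.53. Kcnq1 itself, the potassium channel gene that contains Kcnq1ot1, had only 19, 1, 1 and 6 counts, against 5710 to 12576 for the antisense RNA. Phlda2 was at 0 in every library. Near Meg3, Rtl1, a paternally expressed gene derived from a retrotransposon, had 20, 60, 134 and 55 counts and a value of -0.41 ± 0.67. These neighbours had few counts, and their errors were wide beside those of the non-coding RNAs.

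Around all members, 17 coding genes that are no members themselves were tested. In edgeR 0 of them were called, beside 0.645% of all genes called either way. An unadjusted p under 0.05 was found for 3 (14.2% of all genes) and a value above 0 for 9 (51.5% of all genes). The median log2 fold change was 0.08. Their values ran from -1.15 for Ddc, which lies beside Grb10, to 2.55 for Pnldc1, which lies near Igf2r and had 32, 13, 10 and 4 counts. Usp29, beside Peg3, was at -0.78 and Zim1, on its other side, at 0.08.

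The values of maternally and paternally expressed members overlapped. The 5 maternally expressed members had a median log2 fold change of -0.23, with 2 above 0, and ran from -0.38 for Igf2r to 1.23 for H19. The 4 paternally expressed members tested had a median of 0.55, with 3 above 0, and ran from -0.50 for Peg3 to 1.1 for Dlk1. Each class thus held values on both sides of the median of all genes.

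A further 43 imprinted genes were listed, of which 30 were tested. In edgeR 0 of the 30 were called, while 2 had an unadjusted p under 0.05 with a higher value and 4 with a lower one (6.88% and 7.35% of all genes), and DESeq2 called 1 higher and 1 lower (1.98% and 2.77% of all genes). The 13 genes listed as maternally expressed had a median of 0.09, with 8 above 0. The 17 listed as paternally expressed had a median of -0.27, with 5 above 0. These classes come from textbook knowledge, and whether each gene is imprinted in these cells was not tested. Ube3a, the ubiquitin ligase gene of Angelman syndrome, had 265 and 243.2 CPM with Runx1 and 473.3 and 482.7 CPM with IgG. Both Runx1 libraries were clearly lower, with a log2 fold change of -0.94 ± 0.17 and an adjusted p of 0.0513 in edgeR and 8.57e-05 in DESeq2, and the value was -0.17 after correction for length and GC content. Nnat, which encodes a small membrane protein known from neurons, had 78.8 and 153.1 CPM with Runx1 and 29.4 and 44.3 CPM with IgG. Its log2 fold change of 1.63 ± 0.44 had an adjusted p of 0.159 in edgeR and 0.0107 in DESeq2. Magel2, of the Prader-Willi region, had 1 and 1 counts with Runx1 and 28 and 21 with IgG, which gave -3.72 ± 1.39 and an adjusted p of 0.282 in edgeR, at counts too low to set a size.

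Of the other imprinted genes named by the same rule, Snrpn stood at 1.24, Mirg at 0.84, Osbpl5 at 0.46 and Trappc9 at 0.26 on the log2 scale. Impact stood at -0.75, Zdbf2 at -0.61, Ppp1r9a at -0.47, Airn at -0.27, Plagl1 at -0.26 and Rian at -0.19. After the correction Rian turned to 0.58, while Zdbf2 came to -0.0060, Ppp1r9a to -0.027, Plagl1 to -0.035 and Airn to -0.51. The correction took Airn at its longest annotated transcript, 1.375 kb, although the gene spans chr17:12741311-12860136, so its corrected value depends on that annotation. Phlda2, Ascl2, Dio3, Snurf and Nap1l5 were listed at 0 in all 4 libraries, and Peg10 had at most 1 count in each. For the genes listed at 0, 3 counts, or 0.781 to 1.79 CPM, remain possible, except for Snurf. The exons of Snurf all lie under those of other genes on the same strand, so that a count of 0 sets no limit.

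The members span a wide range of transcript lengths, and fold changes varied with length across the whole table. In 5 groups of near equal size by transcript length, the median log2 fold change of all genes ran from 0.36 in the shortest, under 1.95 kb, through 0.20, 0.06 and -0.07 to -0.27 in the longest, above 5.49 kb. H19 (2.29 kb) and Mest (2.67 kb) lie in the second of these groups. Peg3 (8.69 kb), Igf2r (8.89 kb), Meg3 (14.5 kb) and Kcnq1ot1 (93.1 kb) lie in the longest, with Grb10 (5.06 kb) and Dlk1 (4.65 kb) in the fourth and Cdkn1c (1.90 kb) in the first. H19 lay above the median of its group and Kcnq1ot1 above that of the longest genes, while Peg3 and Igf2r lay below theirs. Across the 9 members the correlation of log2 length with log2 fold change was r = -0.479 and rho = -0.6, beside rho = -0.256 over all genes, and that of GC content was r = 0.341 and rho = 0.483, beside rho = 0.243. These points share 4 libraries, genes are not independent replicates, and the values are descriptions. H19 also lies in the group of highest GC content. The correction, which takes length and GC together, left 0.84 for H19 and 0.99 for Mest, and the part of either alone was not tested.

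**Figure D5:**
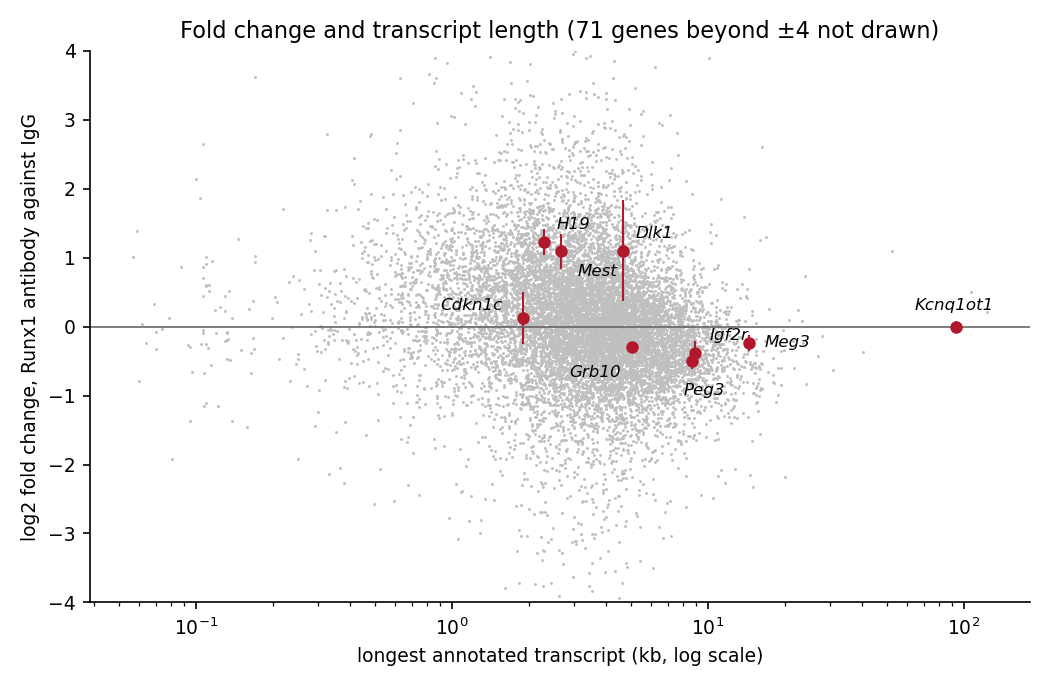
Log2 fold change, Runx1 over IgG, against longest transcript length in kb on a log axis. All genes tested are shown, with the members named and given bars of 1 SE, and 71 genes beyond 4 on the log2 scale are not drawn. The medians of 5 groups by length, which are not drawn, run from 0.36 in the shortest to -0.27 in the longest group. H19 and Mest stand above the median of their group.

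The signalling pathway that Igf2, Igf2r and Grb10 act on was measured through 25 genes, of which 23 were tested. In edgeR 0 were called, 2 had an unadjusted p under 0.05 with a higher value and 4 with a lower one (6.88% and 7.35% of all genes), and the median was -0.13, with 10 above 0. After the length and GC correction the median turned to 0.11. DESeq2 called 0 higher and 4 lower, beside 2.77% of all genes called lower. Among the leading ones were the receptors Insr, at -1.04 ± 0.29, and Igf1r, at -0.60 ± 0.17, and the GTPase gene Rheb, at -0.94 ± 0.29. Their adjusted p in edgeR ran from 0.160 to 0.201. Igf1r had 589.7 and 780.5 CPM with Runx1 and 1099 and 936.3 CPM with IgG, and Insr 80.0 and 69.9 CPM against 142.1 and 161.2 CPM. After correction for length and GC content Igf1r was at -0.25 and Insr at -0.65.

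Genes that lay down, keep or remove imprints were measured through 17 genes, 16 of them tested. In edgeR 0 were called, while at an unadjusted p under 0.05 1 was higher and 4 were lower (6.88% and 7.35% of all genes), with 4 above 0. The median was -0.23, or -0.17 after the length and GC correction, and DESeq2 called 3 lower (2.77% of all genes). Tet1, which oxidises methylated cytosine, had 78.8 and 83.2 CPM with Runx1 and 199 and 195.0 CPM with IgG. Its log2 fold change of -1.31 ± 0.25 had an adjusted p of 0.0676 in edgeR and 6.51e-04 in DESeq2. After the correction it was -0.74, with an adjusted p of 0.328 in edgeR. Smchd1 was at -0.71, Tet3 at -0.59 and Suz12 at -0.57, and after the correction at -0.22, -0.37 and -0.26. Meg3 and Kcnq1ot1 were also set in a list of 10 nuclear long non-coding RNAs, which holds the imprinted Airn, Rian and Mirg too. Rian and Mirg lie downstream of Meg3 in its own cluster, so the list is no independent yardstick. All 10 RNAs were tested and 0 called in edgeR. At an unadjusted p under 0.05, 1 of them was higher and 1 was lower (6.88% and 7.35% of all genes). Their median log2 fold change was -0.13, from Tug1 at -0.90 to Mirg at 0.84, with Malat1 at 0.58 and Xist at -0.70. After the correction that median turned to 0.37, with Tug1 at -0.26, Malat1 at 1.07 and Xist at -0.011.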

How the data were processed

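The authors deposited 1 table of raw counts per gene, as whole numbers with no normalization, for the 4 libraries. The submitters' processing notes name the build mm10, Salmon 1.1.0, STAR 2.7.3a and Trimmomatic 0.36 without saying what each did. The annotation, strand setting and treatment of shared exons are not given in the labels or file. Per the labels' protocols, RNA from antibody-coated beads was reverse transcribed by a method for single cells, and no molecular identifiers are named, so intervals and limits cover counting error only. Sample titles gave the groups and the replicate numbers.

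Gene names, positions and exons came from GENCODE M21 (mm10), which held 55394 of 55573 identifiers; the 92 spike-in entries were kept out of totals and tests. Genes passing filterByExpr (at least 10 counts in the median library, 15 in all) were fitted in R 4.3.3 using edgeR 4.0.16 (quasi-likelihood, TMM scaling, two-sided, Benjamini-Hochberg over all 12401 genes, threshold 0.05); all 9 members tested reached the filter, 4.58 CPM, in all 4 libraries. The biological coefficient of variation was 46.1%. Replicates differed beyond counting noise (chi-square per degree of freedom 12 and 12.9). Alternatives were other scalings, filters, DESeq2 1.42.0, limma 3.58.1, splines of 5 df for length and GC, a replicate block and leaving out each library. Scripts were checked on simulated counts.

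The named genes were the 10 members, coding genes within 150 kb (up to 4 per member), up to 4 of each other list by smallest p (8 for the other imprinted genes) and the 5 genes most like H19. Igf2os, Gm49394, Gm44732, Kcnq1, Peg10 and genes listed at 0 were named after their values were seen. The members and lists were chosen with earlier results of these data known. A planned ratio of H19 to Igf2 had no value, since Igf2 was at 0 in 1 library. A gene that the rule names is not reported here.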

Additional observations from a re-analysis of the deposited data

How the results depend on the processing

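Of 117 member fold changes under 13 alternatives, 79 kept their direction and side of the threshold, 22 gained a call, 2 lost one and 14 changed sign. With 1 member called higher and 0 lower in edgeR as reported, the counts were 0 and 5 under spike-in scaling, 2 and 1 without a filter and under a strict filter, 2 and 2 with DESeq2 and with limma-voom, 0 and 0 after length and GC correction, and 1 and 1 at a threshold of 0.1. Leaving out 1 library gave 1 to 2 higher and 0 to 3 lower: 2 and 2 without the first Runx1 library, 2 and 3 without the second, 2 and 0 without the second IgG library. The replicate block gave 0 and 0, with H19 at 1.22 and an adjusted p of 0.111 in edgeR. Same-numbered libraries did not deviate together (r = 0.00438 over 12401 genes), so the numbers are not read as pairs. The share of all genes called either way moved too, from 0.0161% with the block and 0.29% after the correction to 4.22% and 2.69% without the first and the second Runx1 library, 1.29% to 1.48% without an IgG library, and 31.7% under spike-in scaling.

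The median of the non-coding members was 0.029 by library totals, -1.28 under spike-in scaling, -0.040 without a filter, 0.48 after length and GC correction, and -0.053 to 0.0041 with 1 library left out. That of the coding members was -1.35 under spike-in scaling and -0.29 to 0.10 with 1 library left out. That of the maternal members was -1.51 under spike-in scaling, -0.27 without a filter, -0.13 after the correction and -0.29 to -0.20 with 1 library left out. That of the paternal members was 0.57 by totals, -0.74 under spike-in scaling, 0.51 without a filter, 0.73 after the correction and 0.37 to 0.47 with 1 library left out. Changes of sign were H19 -0.054, Mest -0.13, Dlk1 -0.20, Cdkn1c -1.12 and Kcnq1ot1 -1.28 under spike-in scaling, Cdkn1c -0.27 and Meg3 0.15 after the correction, and Kcnq1ot1 -0.0049 with DESeq2's size factors and in DESeq2 and -0.040 without a filter. With 1 library left out, Cdkn1c ran from -0.44 (without the first Runx1 library) to 0.50 and Kcnq1ot1 from -0.053 to 0.0041, above 0 only without the second Runx1 library. The causes were not tested. With 1 count added to each gene, H19 to Igf2 was 120.3 and 176.6 with Runx1 and 463.5 and 604 with IgG (exact permutation p = 0.333), values set by the added count.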
